A study of Mus musculus with 18 samples.

Results

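The cytosolic ribosomal protein genes of the mouse were taken by symbol: Rpl or Rps followed by a number and at most one of the letters a, x, y or l, together with Rplp0, Rplp1, Rplp2 and Rpsa, with pseudogene rows (symbols with -ps) left out. The rule found 83 of the 50559 genes in the deposited tables, 51 of the large (60S) and 32 of the small (40S) ribosomal subunit. Of these, 80 passed a filter on low counts, 48 large and 32 small, among 18452 genes that passed in all. Rpl10l, Rpl32l and Rpl39l did not pass. RNA-seq was run on thalamus of wild-type mice in 18 libraries, 6 in each of 3 groups. The control group received saline, the model group received an agent labelled Coll IV, and the intervene group received Coll IV together with remodelin, an inhibitor of the RNA acetyltransferase NAT10. The series title places the work in thalamic haemorrhage. The labels do not expand Coll IV, give no age, sex, dose or time after treatment, and do not state whether the numbered samples are separate animals, so the tests weigh differences against the scatter of these samples only, which may be technical.

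Each cytosolic ribosome carries a single copy of most of these proteins, and cells make them in balance, so their mRNAs tend to keep similar proportions. Many of the mRNAs begin with a cytosine followed by a run of pyrimidines, the 5′ terminal oligopyrimidine (TOP) tract, through which the mTORC1 kinase controls their translation. Ribosomal protein mRNAs are abundant in every cell of the brain, in neurons as well as glia, and in bulk tissue a smaller number of cells of a type and less RNA per cell cannot be told apart.

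Sequence around the annotated start was found for 61 of the 83 genes, in 73 windows of the RefSeq promoter table on build GRCm38.p6, which is not the build of the deposited counts and served only to show the letters. Windows of 30 bases, 10 before the start and 20 from it on, are shown for 4 genes whose first base is a cytosine followed by at least 4 more pyrimidines, and for 2 abundant or strongly varying genes without such a run at that base; they were chosen after the windows were seen. Capitals mark the pyrimidine run from the start on.

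Rps6, chr4:86857348-86857377, minus strand: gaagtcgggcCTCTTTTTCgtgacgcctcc

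Rpl15, chr14:18270967-18270996, minus strand: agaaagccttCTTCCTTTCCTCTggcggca

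Rpl28, chr7:4792955-4792984, plus strand: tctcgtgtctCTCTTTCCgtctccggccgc

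Rps15a, chr7:118116128-118116157, minus strand: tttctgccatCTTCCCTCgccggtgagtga

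Rpl23, chr11:97782420-97782449, minus strand: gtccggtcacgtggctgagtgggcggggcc

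Rpl41, chr10:128549149-128549178, minus strand: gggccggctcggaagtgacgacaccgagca

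A run of this kind exactly at the annotated start was present in 19.2% of the windows of ribosomal protein genes (14 of 73) and in 2.51% of all 32851 windows. Within 5 bases of the start on either side it was present in 42.5% and 18.3%. The letters CTTCCG, searched on both strands of the full 300 bases, occurred in 60.3% of the windows of ribosomal protein genes and in 16.9% of all windows. A match describes the letters only, and an annotated start can lie some bases from the start that the tissue uses.

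The ribosomal protein genes stood near the top of the expression range. Their median was 207 FPKM (deposited values scaled to gene length and library size, means over 18 libraries), against 1.49 for all genes that passed the filter, a position at the 99.2 percentile. The highest were Rplp1, a protein of the stalk that recruits elongation factors, at 901 ± 136 FPKM (SD, n = 18), Rpl41, which encodes a very short peptide, at 869 ± 124, the 40S genes Rps15 at 662 ± 91.9 and Rps29 at 587 ± 135, and Rpl26 at 505 ± 107. Rplp1 and Rpl41 lay within 1 SD of each other, as did Rps15 and Rps29, and Rps29 and Rpl26. In all, 65 of the 83 genes averaged at least 100 FPKM, 12 lay between 10 and 100 FPKM, and 6 lay under 10 FPKM. Across the 18 libraries the median SD of log2 CPM (counts scaled to a common library size by TMM) was 0.25 for the ribosomal protein genes and 0.33 for all genes.

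The low end held paralogs and genes whose reads may be assigned elsewhere. Rpl10l, a paralog known from testis, had 0 counts in all 18 libraries. Rpl3l, the paralog of Rpl3 known from muscle, averaged 0.122 ± 0.0450 FPKM, which is 0.0495% of the summed FPKM of Rpl3 and Rpl3l. Rpl28, at 1.97 ± 0.564 FPKM, was low for the gene of a core ribosomal protein. The annotation holds many near-identical pseudogene copies, and 83 of 321 pseudogene rows passed the filter. All 321 rows together had 2.59 to 2.83% as many counts as the 83 ribosomal protein genes. No source used here says how shared reads were divided, so the levels of Rpl28 and the paralogs are uncertain.

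Summed over the 83 genes, ribosomal protein mRNA made up 2.14 to 3.63% of a library's counts. Totals ran from 28481225 to 118461420 counts per library, so counting error is small beside the differences between libraries. In control the shares were 3.0, 3.63 and 3.21% in libraries 1 to 3, and 2.16, 2.14 and 2.70% in libraries 4 to 6. In model they were 2.86, 3.37 and 3.09%, then 2.93, 2.63 and 2.59%. In intervene they were 3.12, 3.12 and 3.49%, then 3.0, 2.51 and 2.97%. Controls 4 and 5 were the lowest of all 18 libraries, and every control numbered 4 to 6 lay below every control numbered 1 to 3. The ratio of 60S to 40S counts stayed between 1.47 and 1.64 in the 18 libraries.

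**Figure D1:**
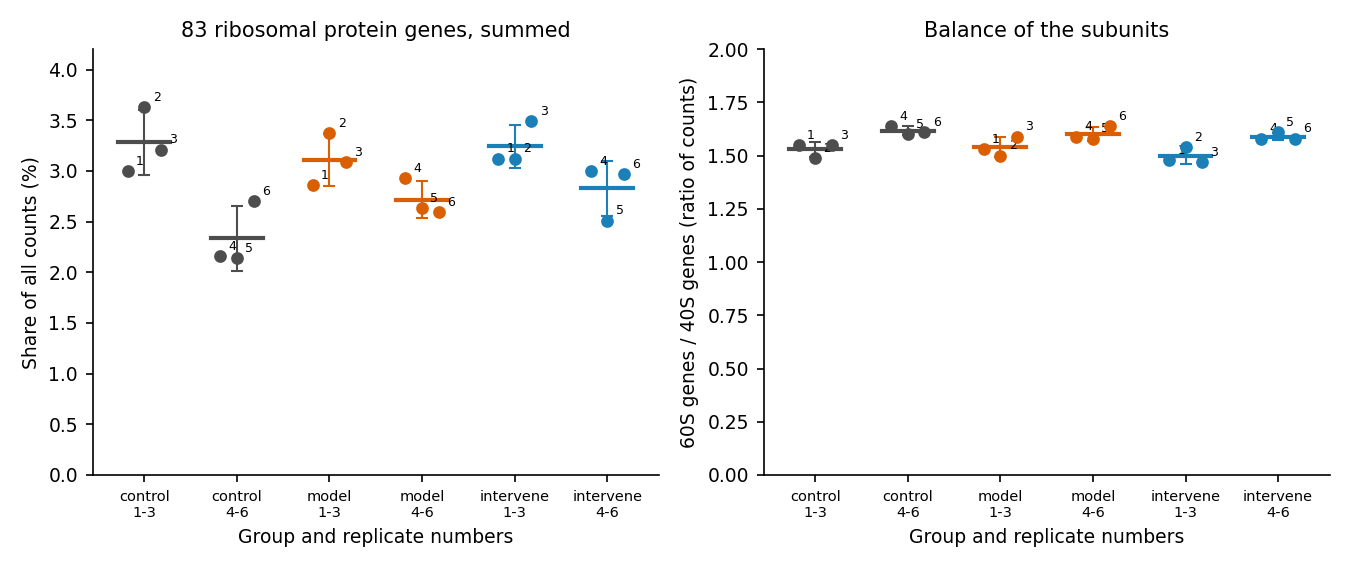
Share of all counts taken by the 83 ribosomal protein genes (left, percent) and ratio of 60S to 40S gene counts (right) in each library, by group and replicate numbers. Points are libraries with their replicate number, bars the mean and whiskers the SD of 3. Controls 4 and 5 lie lowest on the left, at 2.16 and 2.14%. The ratio lies between 1.47 and 1.64, and its mean is higher in libraries 4 to 6 of each group.

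The division of the libraries into replicate numbers 1 to 3 and 4 to 6 is not in the labels. It was noticed in the data and is used here because the 2 sets also differ in markers of brain regions. The summed level of 16 thalamic neuron markers was 979 to 1137 CPM in controls 1 to 3 and 396 to 481 in controls 4 to 6, and that of 15 hippocampal and cortical pyramidal neuron markers was 812 to 4093 and 6950 to 7299 CPM. Between these control sets 10 of the 16 thalamic genes were called lower and 2 higher in libraries 4 to 6, and 7 of the 15 pyramidal genes higher and 1 lower. Among all genes tested 19.6% were called lower and 18.6% higher in this comparison. Markers of some other cells were lower there too. Of 10 oligodendrocyte markers 9 were called lower (summed level 15990 to 19310 CPM in controls 1 to 3 and 7328 to 8123 in controls 4 to 6). All 10 ependymal markers were called lower (59.1 to 123 and 18.2 to 28.6 CPM), and 5 of 12 choroid plexus markers (73.2 to 772 and 5.19 to 8.503 CPM), with 0 higher in these 3 lists. Erythroid markers summed to 232.1 to 327.1 CPM in controls 1 to 3 and 116 to 159.4 in controls 4 to 6. The 4 tested neutrophil and monocyte markers summed to 10.94 to 13.46 and 7.05 to 10.67 CPM. The sums of some other lists overlapped between these control sets. Astrocyte markers summed to 3999 to 4249 and 4074 to 4378 CPM, and microglia and macrophage markers to 455 to 600 and 508 to 632. Endothelial markers summed to 122.5 to 187 and 135 to 183 CPM. In model the thalamic sums were 722 to 1118 CPM in libraries 1 to 3 and 435 to 515 in libraries 4 to 6. The pyramidal sums of model were 2567 to 4725 and 5145 to 5882 CPM, and its oligodendrocyte sums 16090 to 19300 and 8792 to 12440. In intervene the thalamic sums were 807 to 890 CPM in libraries 1 to 3 and 694 to 922 in libraries 4 to 6. The pyramidal sums of intervene were 1855 to 4139 and 2909 to 5299 CPM, and its oligodendrocyte sums 16940 to 22830 and 14550 to 16230. No thalamic, pyramidal, oligodendrocyte, ependymal or choroid plexus marker was at 0 in all libraries of a group. The part of tissue composition in the results below was not tested.

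Between the 2 sets of control libraries, 60 of the 80 genes were lower in libraries 4 to 6 and 0 were higher (edgeR, adjusted p under 0.05 over all 18452 genes). Among all genes tested, 19.6% were called lower in the same comparison. The median log2 difference of the 80 genes was -0.47, a fall to 0.72 of the level in libraries 1 to 3, and that of all genes was -0.016. Of the 48 large subunit genes 32 were called, with a median of -0.45, and of the 32 small subunit genes 28, with a median of -0.57. For 59 of the 80 genes every control from 4 to 6 lay below every control from 1 to 3, against 26.6% of all genes.

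Rps6, the 40S protein that S6 kinase phosphorylates downstream of mTORC1, had 546, 585 and 587 CPM in controls 1 to 3 and 345, 322 and 411 CPM in controls 4 to 6. Its sets did not overlap, and its log2 difference was -0.67 ± 0.13 (SE, edgeR adjusted p = 0.000732). Rpsa, also known as the laminin receptor precursor, had 1037, 1142 and 1149.7 CPM, then 583, 616 and 814 CPM (-0.73 ± 0.16, edgeR adjusted p = 0.00195). Rpl23, a 60S protein known to bind MDM2, had 314, 379 and 379 CPM, then 202, 191 and 247 CPM (-0.75 ± 0.13, edgeR adjusted p = 0.000505). In each of these 3 genes controls 4 and 5 were lower than control 6.

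A wide difference between the control sets was that of Rps4l, a paralog of Rps4x. It had 46.9, 73.5 and 56.1 CPM in controls 1 to 3 and 23.7, 18.3 and 27.8 CPM in controls 4 to 6 (-1.34 ± 0.20, edgeR adjusted p = 0.000138). Not all genes of the stalk proteins were called, and no difference among them was tested. Rplp1 and Rplp2 were lower (-0.43 ± 0.15 and -0.50 ± 0.15, edgeR adjusted p = 0.0312 and 0.0175), whereas Rplp0, which anchors them to the ribosome, had -0.17 ± 0.11 and was not called (edgeR adjusted p = 0.225). Rpl15 and Rpl7a, both 60S proteins, had log2 differences of -0.03 ± 0.09 and -0.03 ± 0.11 and were not called.

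**Figure D2:**
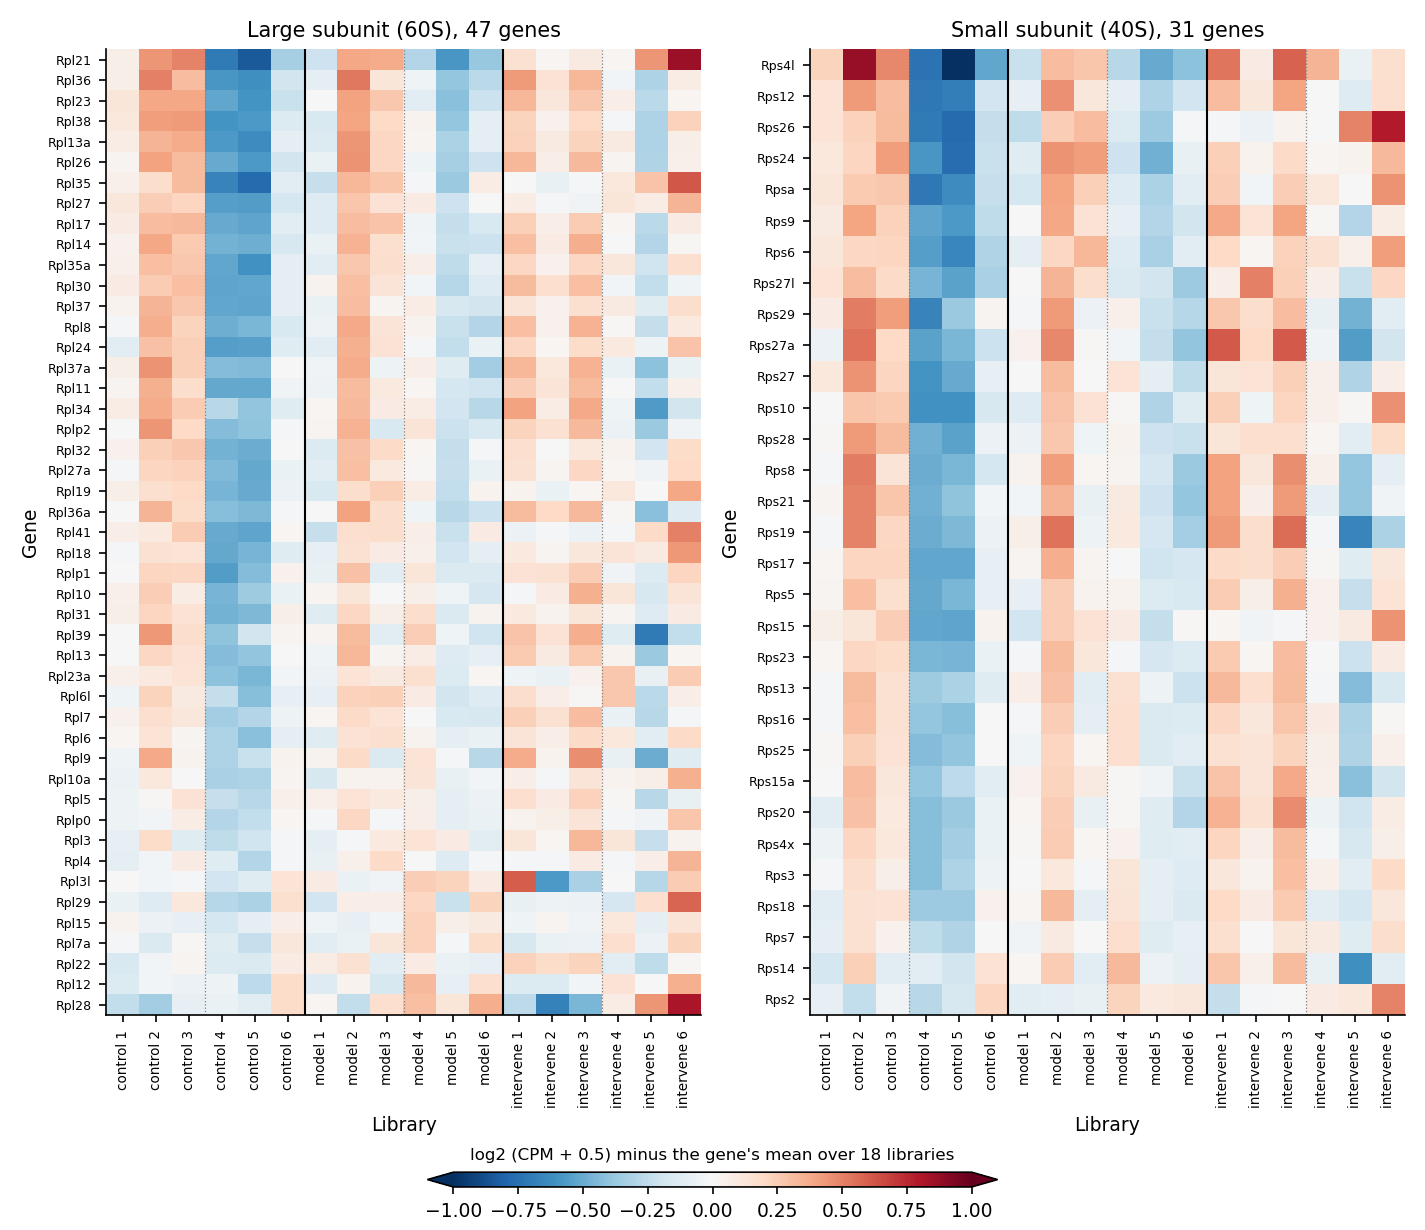
Level of 78 ribosomal protein genes in each of 18 libraries, as log2 (CPM + 0.5) minus the gene's own mean (blue below, red above, colours end at 1 in either direction). Genes (rows) are ordered by their difference between control sets; black lines part the groups and dotted lines the replicate sets. Controls 4 and 5 are blue in most rows, and intervene 6 is red for Rpl21, Rpl28 and Rps26.

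Controls 4 and 5 were the lower libraries of their set for most genes. They lay below all other 16 libraries for 59 of the 80 genes, against 7.16% of all genes tested. Control 4 was the lowest of the 18 libraries for 29 genes, control 5 for 38, intervene 5 for 11 and intervene 2 for 2. Leaving out controls 4 and 5 was an alternative added after these low values were seen. It leaves control 6 alone in its set, assumed to vary like the other groups, so fewer calls are a matter of its construction. As the 2 libraries were chosen for low values, leaving them out raises the control level. The direction in which medians against control move is thus fixed by that choice, here and below. With it the median log2 difference of the 80 genes was -0.22. Leaving out single libraries gave 34 genes called without control 5, 37 without control 4, 38 without control 2 and 67 without control 6. The share of all genes called in such fits is not given, here or below. These counts alone therefore do not single out the ribosomal protein genes.

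In the model group the same comparison called 4 genes lower and 0 higher, where 9.78% of all genes were called lower. The 4 were Rpl21, Rpl23, Rps24 and Rps27l, and all 4 were also among the 60 of control (100% of the 4, 6.67% of the 60). As those 60 were called out of 80 genes, most genes of any group would be among them. Rps24, a 40S protein mutated in some patients with Diamond-Blackfan anaemia, had 594, 881 and 861 CPM in models 1 to 3 and 560.1, 462 and 614 CPM in models 4 to 6, so the sets overlapped (-0.51 ± 0.16, edgeR adjusted p = 0.0373). Rpl23 had 289, 383 and 348 CPM, then 267, 216 and 249 CPM, with no overlap (-0.48 ± 0.13, edgeR adjusted p = 0.0217). The median of the 80 genes was -0.19, with 70 negative. The number called was 0 without model 2, 3 or 5, 1 without model 4 or 6, 7 without control 6, and 15 without model 1.

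In the intervene group 11 genes were lower and 2 higher in libraries 4 to 6, where 7.16% of all genes were called lower and 7.76% higher. The lower genes were Rpl7, Rpl9, Rpl22, Rpl30, Rpl34, Rpl36a, Rpl39, Rps13, Rps15a, Rps19 and Rps27a. Rps27a, which is made as a fusion with ubiquitin, had 541, 405 and 539.7 CPM in libraries 1 to 3 and 344, 239 and 310.4 CPM in libraries 4 to 6 (-0.73 ± 0.18, edgeR adjusted p = 0.0142). The sets did not overlap, and intervene 5 was the lowest. Rpl34 and Rpl39, at the same comparison, had -0.55 ± 0.14 and -0.61 ± 0.17 (edgeR adjusted p = 0.0186 and 0.0232). Of the 11 lower genes 8 were also lower between control sets (72.7% of the 11, 13.3% of the 60) and 0 of them between model sets. Since 60 of the 80 genes were lower between control sets, an overlap of 8 of 11 is near that share.

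The higher genes included Rpl28, a 60S protein, which had 1.5, 1.0 and 1.24 CPM in intervene 1 to 3 and 2.03, 2.75 and 3.73 CPM in intervene 4 to 6 (1.18 ± 0.25, edgeR adjusted p = 0.00767), at a level where its assignment of reads is uncertain. It was highest in intervene 5 and 6, which lay above all other 16 libraries for 3 of the 80 genes, Rpl28 and Rps26 among them (4.27% of all genes; Rps26 was singled out after its values were seen). Without intervene 5 and 6, which leaves intervene 4 alone in its set, 0 of the 80 genes were called between intervene sets; the log2 difference of Rpl28 was then 0.69 and that of Rps27a -0.53. Leaving out 1 library gave 1 called gene without intervene 1, 3 or 5, 4 without intervene 6, and 18 without intervene 2.

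**Figure D3:**
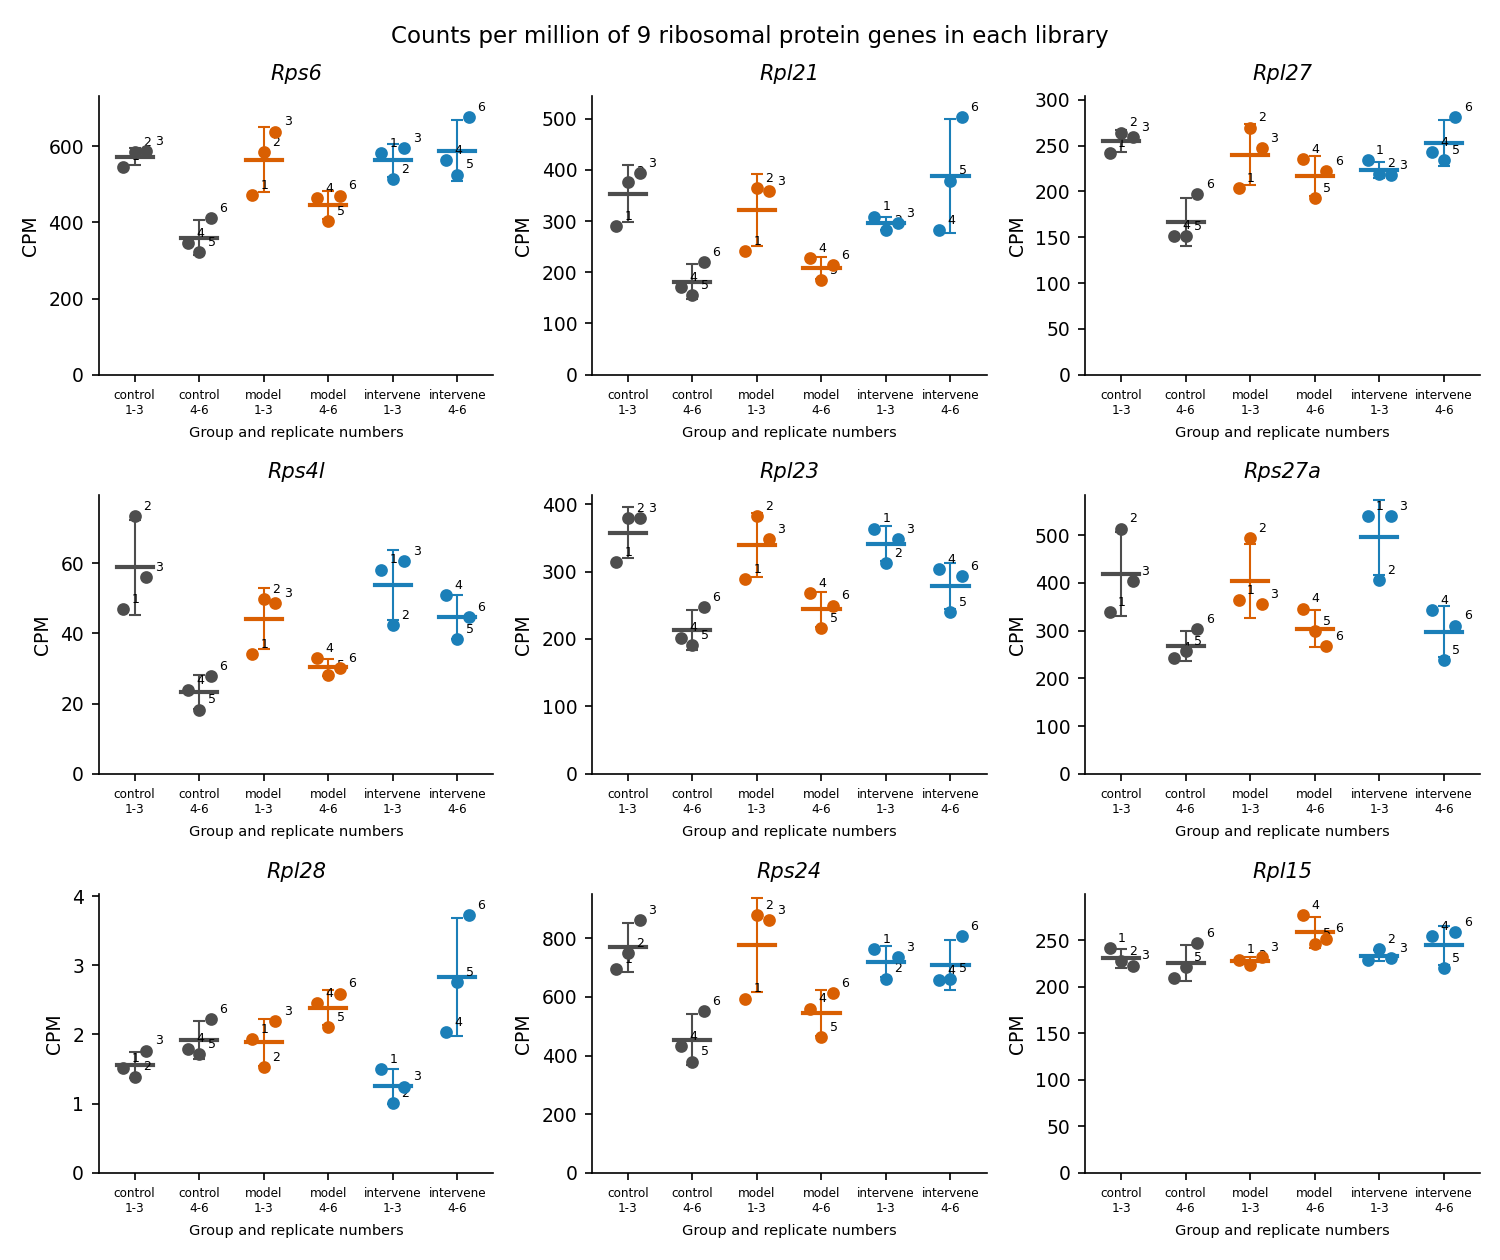
CPM of 9 ribosomal protein genes in each library, by group and replicate numbers. Points are libraries with their replicate number, bars the mean and whiskers the SD of 3. Rps6, Rpl23 and Rps24 are lower in controls 4 to 6 than in controls 1 to 3, Rpl21 and Rpl28 are highest in intervene 6, and Rpl15 overlaps between the control sets.

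Model was set against control to see the effect of Coll IV. Over all 12 libraries 0 of the 80 genes were called, as were 0% of all genes, and 0 of the 80 had an unadjusted p under 0.05 (310 of all genes did). The median log2 difference was 0.07, with 73 positive and 7 negative. Rps6 ran from 322 through a median of 479 to 587 CPM in control and from 403 through 471 to 638 CPM in model, so the groups overlapped (0.12 ± 0.15, edgeR adjusted p = 1). Rpl7a and Rpl15, the 2 genes of lowest p, had 0.12 ± 0.09 and 0.09 ± 0.07 (edgeR adjusted p = 1 for each). Without controls 4 and 5, which were chosen for being low, the median was -0.09.

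Within the sets the same comparison gave opposite medians. Among libraries 1 to 3 it was -0.05 (0.03 without model 1), with 60 of 80 negative and 0 called (0% of all genes; unadjusted p under 0.05 in 0 of the 80). Among libraries 4 to 6 it was 0.22, with 80 of 80 positive and 0 called (0% of all genes), and 12 had an unadjusted p under 0.05, as did 10.2% of all genes. Rpl27, a 60S protein, came nearest, with 152, 151 and 197 CPM in controls 4 to 6 and 235, 192 and 222 CPM in models 4 to 6 (0.38 ± 0.12, edgeR adjusted p = 0.311). Without controls 4 and 5, which were chosen for being low, the median among libraries 4 to 6 was -0.01. The difference between the sets, tested as an interaction, was called for 0 of the 80 genes and 0% of all genes; 3 of the 80 and 2079 of all genes had an unadjusted p under 0.05.

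Intervene was set against model for the addition of remodelin. Over all libraries 0 of the 80 genes were called and 0% of all genes (unadjusted p under 0.05 in 0 and in 531), with a median of 0.07. Nat10, which encodes the target of remodelin, had a log2 difference of -0.02 ± 0.08 (edgeR adjusted p = 0.992); its mRNA does not show the activity of the protein. Among libraries 1 to 3, 0 of the 80 genes were called and 0% of all genes (1 of the 80 had an unadjusted p under 0.05), with a median of 0.06. Among libraries 4 to 6 the median was 0.08, and 10 of the 80 genes had an unadjusted p under 0.05, as did 23.3% of all genes. There 2 genes were called higher and 0 lower, where 3.66% of all genes were called higher.

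They included Rpl21, a 60S protein, which had 227, 185 and 214 CPM in models 4 to 6 and 282, 379 and 503 CPM in intervene 4 to 6, without overlap (0.89 ± 0.20, edgeR adjusted p = 0.0190). Of 31 alternatives, 5 did not call Rpl21, and over them its edgeR, DESeq2 or limma adjusted p ran from 0.000867 to 0.415. Without intervene 5 and 6, 0 of the 80 genes were called. With the replicate number as a block 4 genes were called, among them Rpl21, Rps26 and Rps6. The count was 0 without intervene 5 or 6 or model 4 or 5, and 4 without model 1. The interaction between sets was called for 0 of the 80 genes (0.352% of all genes; 8 of the 80 and 3145 of all genes had an unadjusted p under 0.05). Its widest value was that of Rpl21, at 1.02 ± 0.28 (edgeR adjusted p = 0.0970).

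Intervene minus control uses the same control libraries as model minus control, and the values of both are given side by side. Over all libraries 0 of the 80 genes were called and 0% of all genes, with a median of 0.15 and 77 of 80 positive; 3 of the 80 and 1551 of all genes had an unadjusted p under 0.05. Without controls 4 and 5, which were chosen for being low, the median was -0.01. Rpl18, a 60S protein, ran from 156 through a median of 213 to 248 CPM in control and from 227 through 239.8 to 302 CPM in intervene, so the groups overlapped (0.27 ± 0.12, edgeR adjusted p = 0.562). Among libraries 1 to 3, 0 were called (0% of all genes; 1 of the 80 and 1579 of all genes had an unadjusted p under 0.05), with a median of 0.02.

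Among libraries 4 to 6, 26 of the 80 genes were higher in intervene than in control and 0 lower, where 14.7% of all genes were called higher. They were 15 of the 48 large and 11 of the 32 small subunit genes, and the median of the 80 was 0.32, against 0.22 for model minus control in the same libraries. For 19 of the 80 genes intervene lay wholly above control, against 21.6% of all genes. Rps6 had 345, 322 and 411 CPM in controls 4 to 6 and 563, 525 and 677 CPM in intervene 4 to 6, with no overlap (0.71 ± 0.13, edgeR adjusted p = 0.000962). Rpl21 had 170, 155 and 220 CPM, then 282, 379 and 503 CPM, also with no overlap (1.09 ± 0.20, edgeR adjusted p = 0.00124).

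The number of calls moved with the libraries used, and no single library left out brought it to 0. Leaving out 1 library gave 10 without control 5, 11 without control 4, 12 without intervene 6 and 48 without control 6. With 1 library left in a set, 0 of the 80 genes were called without controls 4 and 5, with Rps6 at 0.52 and a median of 0.06, and 3 without intervene 5 and 6, Rpl23a, Rps4l and Rps6, with a median of 0.34. Markers moved in the same libraries: thalamic neuron markers summed to 396 to 481 CPM in controls 4 to 6 and 694 to 922 in intervene 4 to 6, and 10 oligodendrocyte markers to 7328 to 8123 and 14550 to 16230 CPM. In this comparison 11 of 16 thalamic, 9 of 10 oligodendrocyte, 11 of 12 choroid plexus and 10 of 10 ependymal markers were called higher in intervene, and 2 thalamic markers lower. Among all genes 14.7% were called higher there. Astrocyte markers summed to 4985 to 5097 CPM in intervene 4 to 6 and 4074 to 4378 in controls 4 to 6. Erythroid markers summed to 268.6 to 411 and 116 to 159.4 CPM. The 4 tested neutrophil and monocyte markers summed to 19.19 to 24.9 and 7.05 to 10.67 CPM. Other sums were lower in intervene 4 to 6 than in controls 4 to 6. Pyramidal markers summed to 2909 to 5299 against 6950 to 7299 CPM, and pericyte and smooth muscle markers to 123.5 to 134.5 against 141.7 to 166. Endothelial markers overlapped, at 119.7 to 141.5 and 134.7 to 182.7 CPM. Mitochondrially encoded genes took 6.10, 6.36 and 9.06% of counts in controls 4 to 6 and 9.70, 13.4 and 15.1% in intervene 4 to 6. Their part in the result was not tested.

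The difference between the sets in intervene minus control was called for 15 of the 80 genes, all more positive among libraries 4 to 6, where 9.54% of all genes were called in that direction. The largest was that of Rpl21, at 1.35 ± 0.28 (edgeR adjusted p = 0.00512), with log2 differences of -0.26 in the set 1 to 3 and 1.09 in the set 4 to 6. For Rps6 the interaction was 0.73 ± 0.18 (edgeR adjusted p = 0.0109). With 1 library left in a set the count was 0 without controls 4 and 5, and 4 without intervene 5 and 6 (Rpl23a, Rpl27 and Rps4l among them). Leaving out 1 library gave 7 without control 4 or control 5, between 8 and 10 without control 2 or 3 or intervene 1, 2 or 6, and 27 without control 6.

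**Figure D4:**
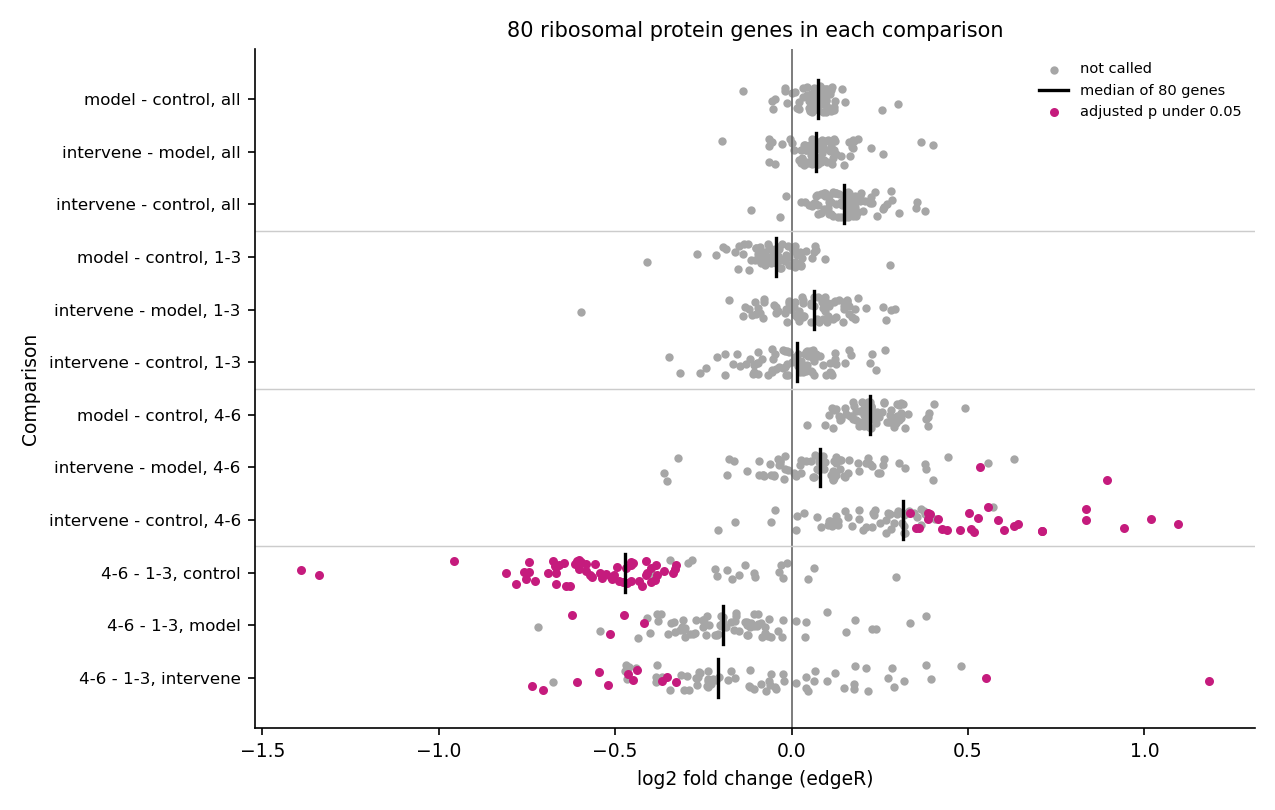
log2 fold change (edgeR) of the 80 ribosomal protein genes in 12 comparisons: groups over all libraries, groups within libraries 1 to 3 and within 4 to 6, and libraries 4 to 6 minus 1 to 3 within each group. Each point is a gene, pink where the adjusted p was under 0.05; black bars are medians. The control sets have 60 pink points around a median of -0.47, and intervene minus control among libraries 4 to 6 has 26 around 0.32.

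Paralogs were set against their partners per length. Rps4l supplied 14.9 ± 1.78% of the summed FPKM of Rps4x and Rps4l in controls 1 to 3 (SD, n = 3) and 8.26 ± 1.19% in controls 4 to 6, without overlap. In intervene its share was 13 ± 1.3 and 12.8 ± 1.19%, and in model 11.7 ± 1.77 and 9.23 ± 0.28%. Rps4x itself was lower between control sets by less (-0.36 ± 0.11, edgeR adjusted p = 0.0185). Rps27l, a paralog of Rps27 known as a p53 target, supplied 1.63 ± 0.0952 and 1.62 ± 0.204% of its pair in the 2 control sets. Rpl6l supplied 15.6 to 19.0% of the sum with Rpl6 in all 18 libraries. Since reads of close paralogs can be divided differently between copies, these shares are those of the authors' counting.

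By start sequence, 10 of 13 counted genes with a pyrimidine run at the annotated start and 33 of 45 without one were lower between control sets, with medians of -0.60 and -0.45. Rps6 carries such a run and was lower, and so does Rpl15, which was not called. Rpl23 and Rpl41, printed above without one, were both called lower. With CTTCCG 32 of 40 genes were lower and without it 11 of 18, with medians of -0.47 and -0.42. These counts are a description, and no difference between the classes was tested.

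Other genes of the translation machinery were counted between control sets, from lists chosen with results of these data known. Of 7 ribosome genes that the symbol rule leaves out, among them Fau, made as a fusion with a ubiquitin-like protein, 3 were lower and 0 higher in libraries 4 to 6, with a median of -0.43; Fau had -0.61 ± 0.15 (edgeR adjusted p = 0.00562). Of 15 translation genes with known TOP mRNAs, 5 were lower and 2 higher. Eef1d, a subunit of the elongation factor eEF1B, had -0.71 ± 0.12 (edgeR adjusted p = 4e-04). Of 27 initiation factors 1 was lower and 7 higher, with a median of 0.10; Eif4h, a cofactor of the helicase eIF4A, had 0.43 ± 0.08 (edgeR adjusted p = 0.000481). Of 32 ribosome biogenesis factors 2 were lower and 8 higher (median 0.09), and of 23 genes of the mTORC1 and S6 kinase pathway 1 was lower and 9 higher (median 0.16). All genes tested had 19.6% lower and 18.6% higher calls.

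Nuclear genes of the mitochondrion were counted in the same way. Of 78 nuclear-encoded respiratory chain subunits 32 were lower and 4 higher, with a median of -0.28, and of 78 mitochondrial ribosomal proteins 16 were lower and 2 higher, with a median of -0.12. Among all genes 19.6% were called lower and 18.6% higher, so the 16 mitochondrial ribosomal proteins called lower were near the share of all genes. In the model group the same 2 lists had 0 lower and 7 higher, and 0 lower and 8 higher, where 9.78% of all genes were called lower and 8.91% higher. Their medians were 0.01 and 0.06, where the cytosolic ribosomal proteins had a median of -0.19. In intervene they had 8 lower and 6 higher, and 2 lower and 13 higher, with medians of -0.06 and 0.04, where 7.16% of all genes were lower and 7.76% higher. No difference between lists was tested.

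**Figure D5:**
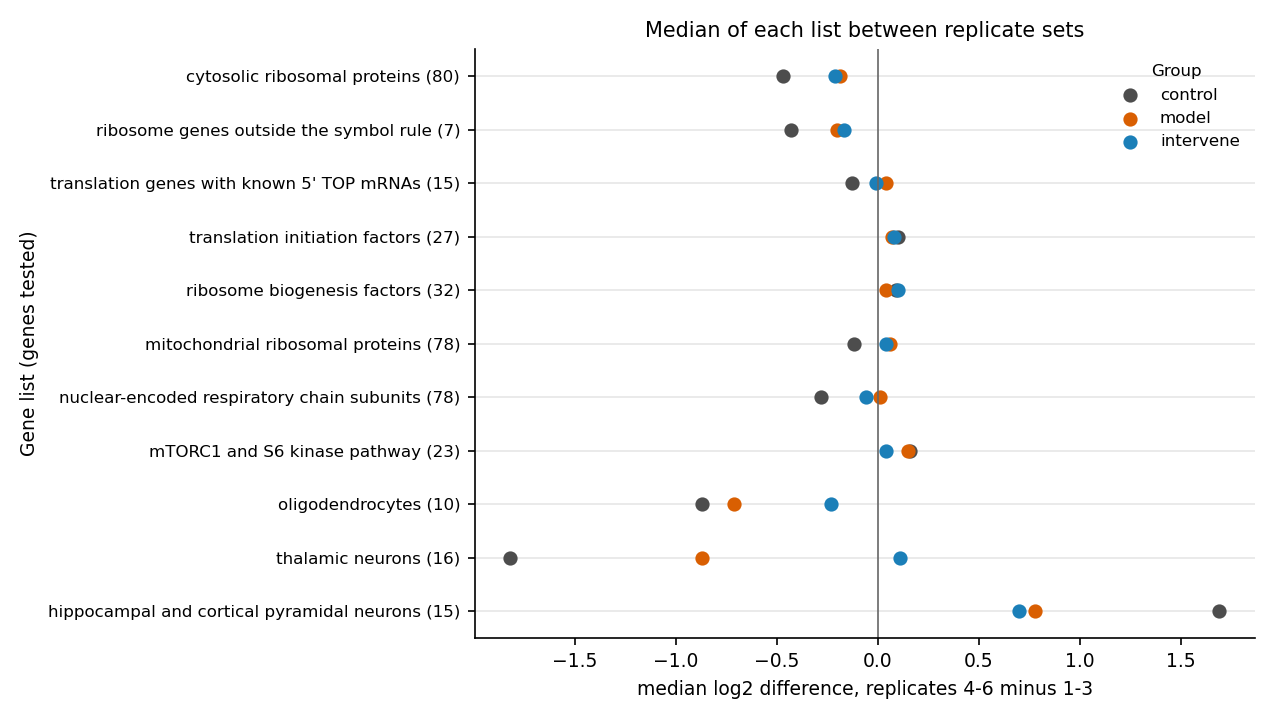
Median log2 difference (edgeR) between libraries 4 to 6 and 1 to 3 within control, model and intervene, for the 80 ribosomal protein genes and 10 other gene lists with the number of genes tested. Each point is the median of a list in a group. The ribosomal proteins lie at -0.47, -0.19 and -0.21, initiation and biogenesis factors lie slightly above 0, and the thalamic and pyramidal neuron markers reach -1.82 and 1.69 in control.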

How the data were processed

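RNA was extracted with TRIzol and captured on oligo(dT) beads, per the labels' protocols. Reads were aligned with HISAT2 and counted with featureCounts on GRCm39, per the submitters' processing notes; no source used here gives versions or strand. The authors deposited counts per gene and FPKM per gene for 18 libraries. The deposited FPKM equal count divided by length and total (same whole length in all libraries for 18117 of 18117 genes counted in all, tolerance 1e-06), so they are no second measurement and served for levels between genes. Of deposited counts from 1 to 20, 82.1% are even, as counting both mates of a pair would give; no source used here gives that setting.

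Counts were tested with edgeR 4.0.16 (R 4.3.3): TMM, filterByExpr, robust quasi-likelihood F test, Benjamini-Hochberg over 18452 genes, threshold 0.05. One fit had a mean per group, the other a mean per group and replicate set, with all 18 libraries in each. The SE is the log2 fold change divided by the square root of F. The tests were also run on simulated counts with known changes. The outcome is not given here and is no support for the results above. No library repeated another of its group (chi-square per degree of freedom at least 11.4). The lowest value, 11.4, was that of controls 4 and 5, whose values with control 6 were 32.3 and 38.8. The next lowest was 21.9, for models 4 and 5. Whether controls 4 and 5 are independent samples is not stated in the labels and was not tested.

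The ribosomal protein genes and the 23 other lists were chosen with earlier results of these data known. Named genes are up to 3 called genes of lowest p in each direction of a comparison, or 2 of lowest p where none was called, the 5 highest and 5 lowest in FPKM, the paralog pairs, the stalk genes, Rpsa, Rps6, and up to 2 genes of another list. Values of some genes are not reported here, and the heat map leaves them out. Not every such name is printed; others are listed as called, or were chosen after their values were seen (Rps26, Rpl6l, and those that an alternative called). Same-numbered libraries of control and model deviated together from their group means (correlation 0.14 to 0.69, over 0.1 in 6 of 6 pairs), which meets the rule used for pairing; over 0.1 were 5 of 6 pairs of intervene and model and 3 of 6 of intervene and control. Measured from means of group and replicate set, only 3 of 6 pairs of control and model were over 0.1 (-0.3 to 0.29), 3 of 6 of intervene and model and 1 of 6 of intervene and control. The labels give no source of such pairing.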

Additional observations from a re-analysis of the deposited data

Results flagged for a closer look

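Rpl18 in intervene 6, at 302 CPM, and Rps15 in intervene 6, at 1130 CPM, stood apart from the other 5 intervene libraries by Dixon's test. Of 78 groups of 6 values tested, these 2 were found, and chance alone gives about 1 in 20 such groups.

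For 9 named genes the difference between intervene and control was itself different between libraries 4 to 6 and libraries 1 to 3, by edgeR's test of the interaction at an adjusted p under 0.05. The log2 interaction was 1.35 for Rpl21, 1.07 for Rps4l, 0.79 for Rpl27, 0.74 for Rps24, 0.74 for Rpl41, 0.73 for Rps6, 0.67 for Rps15, 0.60 for Rpl18 and 0.56 for Rpl23a, in each case more positive among libraries 4 to 6. Controls 4 and 5 were the 2 lowest of the 18 libraries for each of these genes. Without them, which leaves control 6 alone in its set, 0 ribosomal protein genes had an interaction that was called; they were chosen for being low, so this is a description of where the low values lie.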

How the results depend on the processing

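The labels give the groups shared replicate numbers, so the comparisons of groups were also fitted with the replicate number as a block. The block changed no count over all libraries or among libraries 1 to 3 (0 of 80 in each), gave 4 in place of 2 for intervene minus model among libraries 4 to 6, and 29 in place of 26 for intervene minus control there. No alternative turned the sign of the 25 values of named genes that were recomputed; the interactions of single genes and other printed genes were not. Medians near 0 did turn. Without controls 4 and 5 the median of model minus control went from 0.07 to -0.09 over all libraries and from 0.22 to -0.01 among libraries 4 to 6, and that of intervene minus control over all libraries from 0.15 to -0.01. Controls 4 and 5 were left out for being low in these genes, so the direction of these moves was fixed by that choice. Model minus control among libraries 1 to 3 went from -0.05 to 0.03 without model 1. The medians of intervene minus control among libraries 1 to 3 (0.02) and of the interaction for intervene minus model (0.04) turned under several alternatives, the lowest at -0.05 and -0.06. The 3 comparisons over all libraries called 0 genes in every alternative run.

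Intervene minus model among libraries 4 to 6 called 1 gene with TMM on other genes, with a filter of 1 CPM in 6 libraries, with limma-voom, with limma on log2(FPKM + 1) and without robust estimation, and 4 with DESeq2. It called 1 without controls 4 and 5 and 0 without intervene 5 and 6. Leaving out 1 library gave 0 to 4. Intervene minus control among libraries 4 to 6 called 0 without controls 4 and 5, 3 without intervene 5 and 6, and 10 to 48 with 1 library left out. Control sets called 1 without controls 4 and 5, and 34 to 67 with 1 library left out. Model sets called 2 with no filter, 8 with DESeq2, and 0 to 15 with 1 library left out. Intervene sets called 23 with library totals, 21 with DESeq2, 24 with limma on log2(FPKM + 1), 1 on the 6 libraries alone, 0 without intervene 5 and 6, and 1 to 18 with 1 library left out. The interaction called 1 with DESeq2 and 0 to 2 with 1 library left out for intervene minus model. For intervene minus control it called 0 without controls 4 and 5, 4 without intervene 5 and 6, and 7 to 27 with 1 library left out. The cause of these shifts was not tested, and the share of all genes called in each alternative is not given. Among the values of named genes under alternatives, 716 stayed on their side of the threshold and 45 no longer passed it. The 716 include values not called in the main fit, which had no call to lose. All 45 were of called values, most often Rps27l between model sets, in 9 of 30 alternatives. The 2 alternatives that leave out 2 libraries were added after the data were seen, and where the replicate sets are compared they leave 1 library in a set, which is assumed to vary like the other groups.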
